A study of Mus musculus with 8 samples.

Results

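The genes that encode the proteins of the cytosolic ribosome were followed in the cortical shaft of the mouse femur. They were chosen by symbol alone: rows whose symbol begins with Rpl or Rps and a digit, or is Rplp0, Rplp1, Rplp2 or Rpsa, without the Rps6k kinases and without symbols marked as pseudogenes. The rule took 86 of the 14457 genes in the table. Of these, 77 encode canonical ribosomal proteins, 46 of the large subunit and 31 of the small subunit, and are called the core genes here. The other rows are 7 paralogs (Rpl3l, Rpl7l1, Rpl22l1, Rpl36al, Rpl39l, Rps27l and Rps27rt), the retrogene Rps23rg1, and Rps19bp1, whose symbol fits the rule but whose product is no ribosomal protein. RNA had been sequenced in bulk at postnatal day 7 in 4 CKO libraries (Col2.3kb-Cre; Slc26a2 fl/fl) and 4 control libraries (Col2.3kb-Cre; Slc26a2 fl/+). Both genotypes thus carried the Cre transgene, whose Col2.3kb promoter comes from a type I collagen gene and is active in osteoblasts, and both carried at least 1 floxed allele of the sulfate transporter gene Slc26a2. The labels give no sex, no litter and no batch, nor every library stands for a separate mouse, so p-values measure the spread between these libraries.

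A cytosolic ribosome is built from a large and a small subunit, each a core of ribosomal RNA coated with proteins, most of them present in 1 copy. The messenger RNAs of these proteins are among the most abundant of growing cells. Most begin with a cytidine followed by a run of pyrimidines, the 5′ terminal oligopyrimidine (TOP) tract, through which mTOR signalling controls their translation, and most of the genes have compact promoters. Blood-forming marrow makes ribosomes at a high rate, and in people loss of 1 copy of several of these genes causes Diamond-Blackfan anemia, a failure of red cell production.

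The start sites of members the results turn on are shown here because the TOP tract is the sequence feature the family is known for. RefSeq (GRCm38.p6) start sites were found for 57 of the 77 core genes. Each window holds 15 bases before the start and 15 bases from it on, on the strand of the gene, and capitals mark the longest run that opens with C and goes on with 4 or more pyrimidines. The first 5 genes had log2 fold changes above the core median and the last 3 had values below it. They are a selection and do not give the relation of the run to fold change. Rpl11 and Rps15, also above the median, had no such run in the window, and Rpl15, Rps2 and Rpl12, below it, had one.
Rps27 (chr3:90213634-90213663, minus strand): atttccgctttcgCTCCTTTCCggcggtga
Rpl36a (chrX:134585639-134585668, plus strand): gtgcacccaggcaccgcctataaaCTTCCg
Rpl38 (chr11:114668565-114668594, plus strand): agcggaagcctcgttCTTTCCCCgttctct
Rpl35 (chr2:39005117-39005146, minus strand): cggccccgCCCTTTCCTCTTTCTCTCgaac
Rplp2 (chr7:141447636-141447665, plus strand): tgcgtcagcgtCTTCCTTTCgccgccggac
Rps6 (chr4:86857353-86857382, minus strand): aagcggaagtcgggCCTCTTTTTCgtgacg
Rpl10 (chrX:74270801-74270830, plus strand): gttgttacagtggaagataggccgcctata
Rplp0 (chr5:115559452-115559481, plus strand): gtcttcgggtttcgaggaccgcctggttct

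Such a run lay in the window at 39 of 67 start sites of core genes (58.2%), against 36.4% of the 32851 start sites in the table. It was found at 60% of large-subunit and 55.6% of small-subunit start sites. Its absence at the RefSeq start of Rplp0 and Rpl10 says only that these letters are not in those windows. The letters CCGGAAG, the core of the site bound by ETS factors, were searched on both strands of the 300 bases around each start (250 before, 50 after) and lay at 25 of the 67 start sites (37.3%), against 8.86% of all. The 37 core genes with a pyrimidine run at any of their start sites had a median log2 fold change between the genotypes of 1.41, and the 20 without one had a median of 1.30.

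Several facts of the libraries bear on every value below. The targeted gene Slc26a2 stood at 4.37, 7.49, 4.85 and 4.85 FPKM in control replicates 1 to 4 and at 2.93, 2.08, 0.706 and 0.83 FPKM in CKO replicates 1 to 4, with no overlap (exact two-sided permutation test over 70 assignments, p = 0.0286). FPKM (read fragments divided by transcript length and by library size) is a level per length, but it does not add up to a fixed total, and summed FPKM was 352283 to 379669 in control and 431612 to 598419 in CKO. The summed markers of the neutrophil and erythroid lineages of marrow stood higher in CKO. The summed FPKM of 21 neutrophil-lineage genes was 2496 to 5482 in control and 7217 to 29249 in CKO, and that of 20 erythroid genes was 3961 to 13270.5 in control and 18364 to 70948 in CKO. Of these genes 3 and 5 were called higher and 0 lower by the limma test described below, against 3.88% and 0.651% of all tested genes. Sums follow the most abundant genes. Mean log2(FPKM + 1) of the neutrophil list overlapped, at 4.603 to 6.337 in control and 6.262 to 7.43 in CKO. That of the erythroid list did not, at 4.558 to 5.852 in control and 5.888 to 6.887 in CKO. At an unadjusted limma p under 0.05, 13 neutrophil genes were higher and 1, Mmp9, was lower. For erythroid genes the counts were 10 and 0, where 15.9% of all tested genes were higher. The summed FPKM of 19 B-lineage genes was 150.0 to 789 in control and 476 to 957 in CKO, with overlapping groups and 0 called. Of the 19, 3 were higher at an unadjusted limma p under 0.05, a share near the 15.9% of all tested genes. The summed FPKM of 13 osteoblast genes was 42647 to 54121 in control and 14747 to 49086.5 in CKO, with 1 of 13 called lower (0.651% of all tested genes) and 0 higher. No listed marker of these cell types was at 0 in all libraries. The Y-linked genes Ddx3y and Eif2s3y were listed at 0 in control replicate 1 and in CKO replicates 1, 2 and 3 and above 0 in the other libraries. Their presence thus moved in part with genotype, and each genotype held libraries of both kinds. CKO replicate 4 had the lowest share of mitochondrially encoded transcripts (2.92% of summed FPKM, against 9.13% to 14.8% elsewhere) and the highest globin share (12.3%). It also had the most genes at 0 FPKM, 155 against 5 to 31 elsewhere. The part of these differences in the ribosomal protein values was not tested beyond the fits given near the end. In bulk tissue, fewer cells of a type and less RNA per cell cannot be told apart.

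Ribosomal protein transcripts took up a larger share of the measured RNA in every CKO library than in any control library. The 86 genes held 10.8%, 8.52%, 7.97% and 9.02% of summed FPKM in control replicates 1 to 4, and 13.3%, 12.8%, 19.7% and 21.0% in CKO replicates 1 to 4. The mean share was 9.08% ± 1.23 (SD, n = 4) in control and 16.7% ± 4.27 (SD, n = 4) in CKO, a difference of 7.62 percentage points. CKO replicates 1 and 2 lay close together and CKO replicates 3 and 4 far above them, and without the latter pair the difference was 3.96 percentage points. Of the 100 genes with the highest FPKM in a library, 38 to 47 were core genes in control and 47 to 56 in CKO. The balance of the subunits moved little: summed large-subunit FPKM over summed small-subunit FPKM was 1.42, 1.41, 1.40 and 1.44 in control replicates 1 to 4 and 1.43, 1.41, 1.38 and 1.40 in CKO replicates 1 to 4, with overlapping groups.

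**Figure D1:**
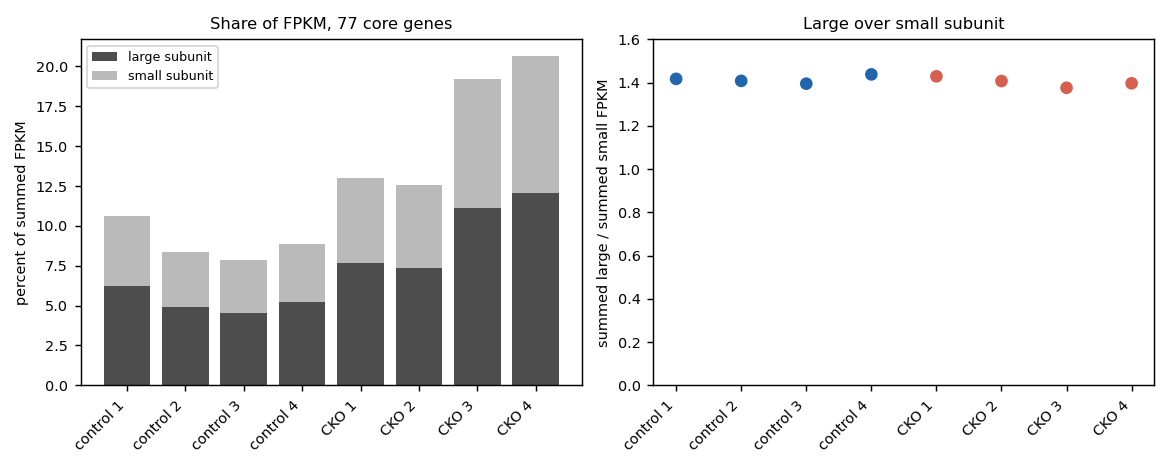
The left panel shows, for each library, the percent of summed FPKM held by the 77 core genes, with large-subunit genes below and small-subunit genes above; the right panel shows the ratio of the sums of the subunits. The bars of all CKO libraries are taller than those of the control libraries, while the ratio stays between 1.38 and 1.44.

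All 86 genes had a positive log2 fold change, CKO over control, where 51.1% of the 12748 genes tested did, though 11 core genes stood below 0 under quantile normalization and 3 once a trend with transcript length was removed. Fold changes were computed from log2(FPKM + 1), and a gene was called when its p-value from limma, a linear model with moderated variances fitted to all tested genes at once and adjusted by the Benjamini-Hochberg method, was under 0.05. All 86 passed the filter on low values. Of them, 33 were called higher and 0 lower, against 3.88% of all tested genes called higher and 0.651% called lower. The core genes gave 30 of these calls, 18 of 46 in the large and 12 of 31 in the small subunit. Unadjusted p was under 0.05 with a higher CKO level in 82 of the 86 genes, against 15.9% of all tested genes. The lowest CKO library lay above the highest control library in 76 of the 86, against 12.7% of all tested genes. The median log2 fold change of the core genes was 1.32 (quartiles 1.11 and 1.52), that is 2.49-fold, where the median over all tested genes was 0.01. It was 1.30 in the large and 1.39 in the small subunit. The calls were narrow: limma adjusted p was 0.0388 to 0.0497 in the 30 called core genes and 0.0503 to 0.269 in the 47 others.

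**Figure D2:**
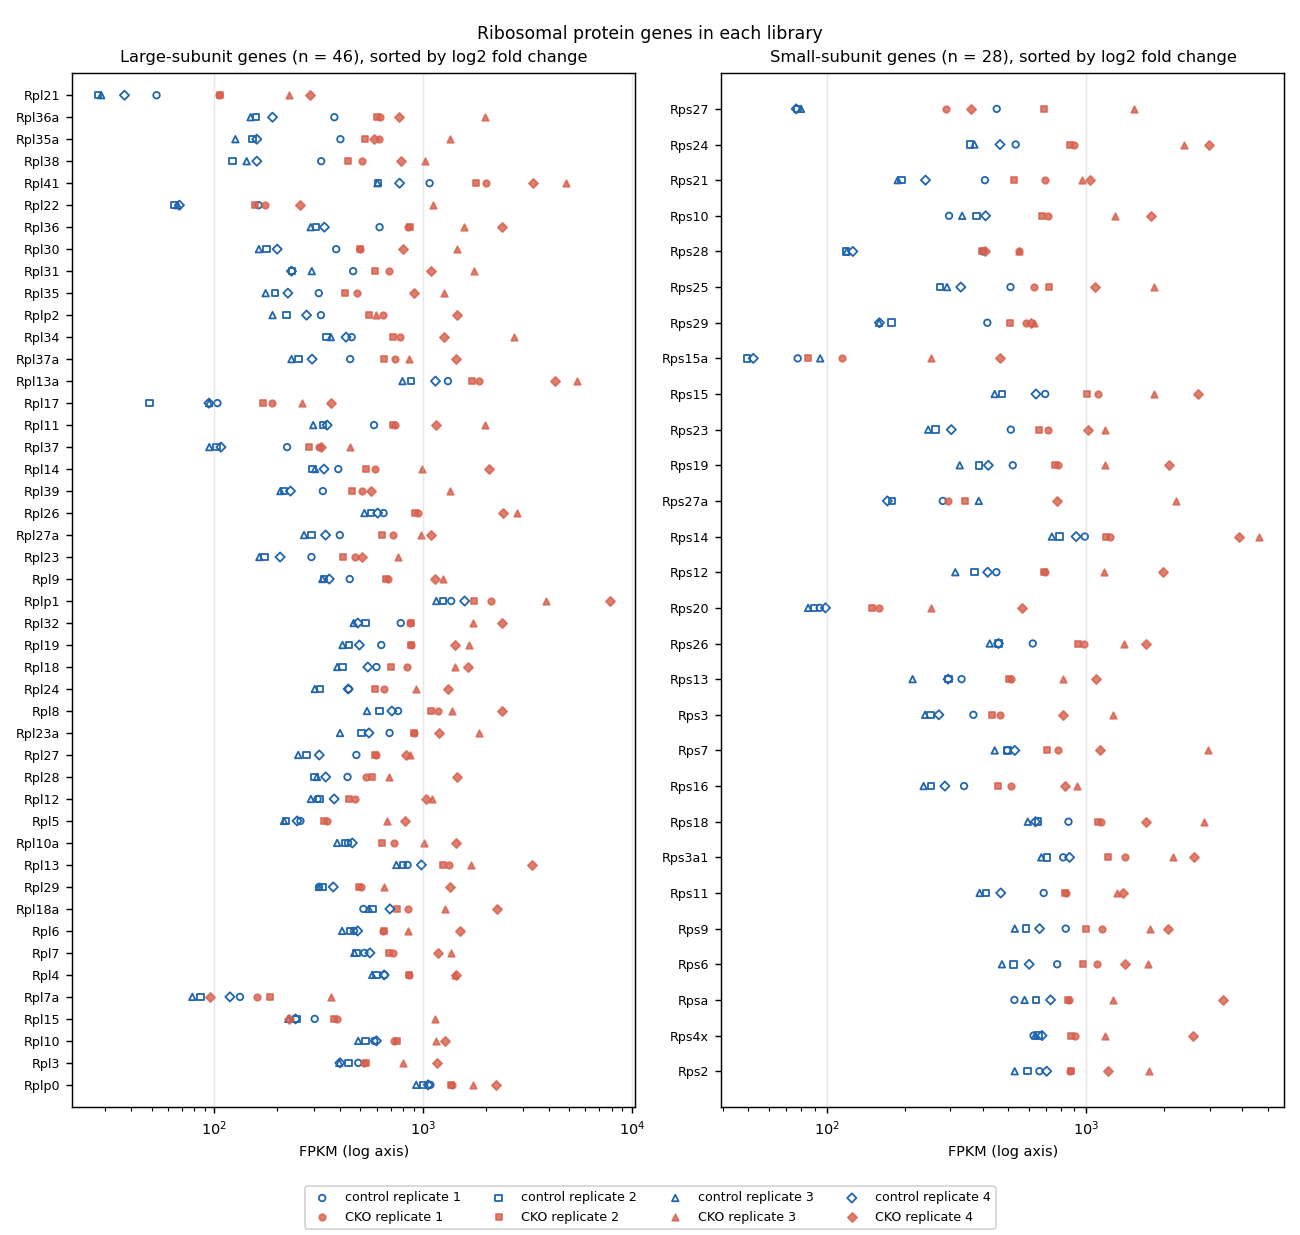
Each row is 1 of 74 core genes, sorted within its subunit by log2 fold change, and each point is its FPKM in 1 library on a log axis; open blue marks are control and filled red marks CKO, with the marker shape giving the replicate number. In 67 of the 74 rows every red mark lies to the right of every blue mark, and in most rows CKO replicates 3 and 4 stand farthest right.

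In the large subunit, the highest fold changes were those of Rpl21, Rpl36a, Rpl35a and Rpl38. Rpl21 (chr5:146832890-146837032, GRCm38, plus strand) had FPKM of 52.8, 27.7, 28.7 and 37.1 in control replicates 1 to 4 and of 105, 107, 229 and 286 in CKO replicates 1 to 4. Every CKO library exceeded every control library, and the group means were 36.6 ± 11.6 (SD, n = 4) in control and 182 ± 90.6 (SD, n = 4) in CKO, with a log2 fold change of 2.19 (SE 0.36, limma adjusted p = 0.0388). Rpl36a, which lies near the exit site for transfer RNA, had FPKM of 376, 158, 149 and 189.9 in control and 619, 598, 1990.0 and 764 in CKO. Its log2 fold change was 2.09 (SE 0.43, limma adjusted p = 0.0388), with CKO replicate 3 far above the rest and control replicate 1 far above the other controls. Rpl35a, mutated in some patients with Diamond-Blackfan anemia, had FPKM of 402, 152, 126 and 159.7 in control and 614, 524, 1351 and 582 in CKO and a log2 fold change of 1.91 (SE 0.42, limma adjusted p = 0.0408). The same libraries were the outlying ones. Rpl38, whose mutation in mice changes the axial skeleton and the translation of Hox messenger RNAs, had FPKM of 325, 122, 143 and 159.7 in control and 509, 437, 1020.2 and 786 in CKO, and its log2 fold change was 1.90 (SE 0.37, limma adjusted p = 0.0388).

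The lowest fold changes of the subunit were those of Rplp0, Rpl3, Rpl10 and Rpl15, and none of these passed the test. Rplp0 (chr5:115559467-115563727, GRCm38, plus strand), the anchor of the stalk, had FPKM of 1084, 1001, 927 and 1058 in control and 1374, 1358, 1732 and 2233 in CKO. The groups did not overlap, and the log2 fold change was 0.69 (SE 0.28, limma adjusted p = 0.153). Rpl3, which reaches towards the peptidyl transferase centre, had a log2 fold change of 0.74 (SE 0.30, limma adjusted p = 0.16), and Rpl10, which joins the subunit late in its assembly, one of 0.78 (SE 0.27, limma adjusted p = 0.111). Rpl15 had FPKM of 302, 247, 226 and 245 in control and 386, 373, 1146 and 228 in CKO: replicate 3 was far above, and replicate 4 was within the control range.

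The stalk of the large subunit, which recruits the elongation factors, is made of Rplp0, Rplp1 and Rplp2 on a base that includes Rpl12. All 4 had CKO libraries above all control libraries, beside 70 of the 77 core genes and 12.7% of all tested genes. Of the 4, 1 passed the test, Rplp2, beside 30 of the 77 core genes and 3.88% of all tested genes called higher. Rplp2 had FPKM of 324, 221, 190.0 and 277 in control and 644, 549, 597 and 1461 in CKO, with a log2 fold change of 1.59 (SE 0.34, limma adjusted p = 0.0408). Rplp1, its partner in a heterodimer and the core gene with the highest FPKM in all 4 control libraries, had FPKM of 1364, 1247, 1157 and 1582 in control and 2109.7, 1754, 3875 and 7844 in CKO. Replicate 4 stood far above the rest for both partners, and the limma adjusted p of Rplp1 was 0.117 at a log2 fold change of 1.29 (SE 0.46). Rpl12 had a log2 fold change of 1.11 (SE 0.34, limma adjusted p = 0.0834).

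Rpl5 and Rpl11 carry the 5S ribosomal RNA into the subunit and, when free, bind the p53 regulator Mdm2. Rpl5 had FPKM of 258, 221, 216 and 249 in control and 345, 335, 671 and 819.7 in CKO, and Rpl11 had 582, 331, 298 and 347 in control and 737, 716, 1989 and 1156 in CKO. The groups did not overlap for either gene, and neither passed the test, with log2 fold changes of 1.09 (SE 0.32) and 1.48 (SE 0.38) and limma adjusted p of 0.0729 and 0.0515. Among 9 proteins at the tunnel through which the nascent chain leaves, 4 were called higher (Rpl17, Rpl19, Rpl31 and Rpl35), against 30 of the 77 core genes and 3.88% of all tested genes. All 9 had positive log2 fold changes, with a median of 1.42. Rpl31 had FPKM of 462, 236, 293 and 234 in control and 686, 589, 1761 and 1091 in CKO. Rpl13a, the core gene with the highest FPKM in CKO replicate 3, had FPKM of 1316, 876, 797 and 1147 in control and 1849, 1723, 5482 and 4293 in CKO and did not pass (log2 fold change 1.54, SE 0.43, limma adjusted p = 0.0639).

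In the small subunit, Rps27, Rps24 and Rps21 were among the genes with the highest fold changes, and the latter pair passed. Rps24, a Diamond-Blackfan anemia gene needed for processing of the small-subunit RNA, had FPKM of 535, 356, 371 and 466 in control and 899, 868, 2374 and 2964 in CKO, with a log2 fold change of 1.84 (SE 0.43, limma adjusted p = 0.0453). CKO replicates 3 and 4 stood well above CKO replicates 1 and 2, and all 4 stood above control. Rps21 had FPKM of 408, 195, 188 and 240.4 in control and 695, 528, 962 and 1036 in CKO (log2 fold change 1.66, SE 0.33, limma adjusted p = 0.0388). For Rps21, control replicate 1 was the highest control and still below the lowest CKO library.

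Rps2 and Rps4x had the lowest fold changes of the subunit, 0.86 and 0.94, and neither passed, though the groups did not overlap in either. Rps2, a protein of the channel where messenger RNA enters, had FPKM of 661, 595, 531 and 705 in control and 867, 877, 1743 and 1209.6 in CKO (SE of the log2 fold change 0.30, limma adjusted p = 0.107). Rps4x, encoded on the X chromosome, had FPKM of 627, 655, 636 and 676 in control and 907, 876, 1185 and 2571 in CKO. Its controls were tight and CKO replicate 4 was far above the other CKO libraries (limma adjusted p = 0.133). Of 6 tested proteins of messenger RNA entry and decoding, 3 were called higher (Rps15, Rps23 and Fau), against 3.88% of all tested genes. All 6 had positive log2 fold changes, with a median of 1.34.

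Rps19, the gene most often mutated in Diamond-Blackfan anemia, had FPKM of 522, 386, 326 and 420.0 in control and 782, 759, 1182 and 2083 in CKO and rose (log2 fold change 1.43, SE 0.35, limma adjusted p = 0.0493). Rps6, the substrate of the S6 kinases below mTOR, had FPKM of 773, 526, 474 and 603 in control and 1099, 973, 1737 and 1415 in CKO and did not pass (log2 fold change 1.12, SE 0.29, limma adjusted p = 0.0536). Rpsa, also known as a laminin receptor, had FPKM of 529, 640.4, 579 and 729 in control and 859, 855, 1273 and 3369 in CKO, with replicate 4 far above (limma adjusted p = 0.137). The most abundant small-subunit genes by mean FPKM were Rps14 and Rps3a1, with means of 858 ± 114 (SD, n = 4) in control and 2733 ± 1779 (SD, n = 4) in CKO for Rps14 and of 764 ± 90.2 (SD, n = 4) in control and 1846 ± 648 (SD, n = 4) in CKO for Rps3a1; neither passed the test. Of 19 core genes whose human counterparts are mutated in Diamond-Blackfan anemia, 10 were called higher and 0 lower, beside 30 of 77 in the core and 3.88% of all tested genes. All 19 had positive log2 fold changes, with a median of 1.48, beside 1.32 in the core.

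Rps27a is made as a fusion with ubiquitin, and Fau as a fusion with a ubiquitin-like protein. The symbols of Fau and Rack1, also proteins of the ribosome, do not match the rule and were read as outside comparisons. Fau had FPKM of 589.5, 457, 378 and 486 in control and 999, 893, 1491 and 1810.3 in CKO and rose (log2 fold change 1.40, SE 0.30, limma adjusted p = 0.0408). Rack1, a scaffold on the small subunit, had a log2 fold change of 0.77 (SE 0.34, limma adjusted p = 0.185). Rps27a had FPKM of 280.3, 179, 386 and 171 in control and 294, 341, 2226 and 770.1 in CKO; the groups overlapped and replicate 3 was far above (limma adjusted p = 0.163).

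Genes that work beside the ribosomal proteins had smaller median fold changes. Of 23 tested other TOP messenger RNAs of translation, a list that includes Fau and Rack1, 4 were called higher (Fau, Eef1b2, Naca and Btf3) and 0 lower, against 3.88% and 0.651% of all tested genes. Log2 fold changes were above 0 in 20 and below 0 in 3, with a median of 0.71. Eef1b2, an exchange factor for elongation factor 1, had FPKM of 169, 132, 127 and 159.8 in control and 249, 245, 414 and 500.3 in CKO (log2 fold change 1.195, SE 0.28, limma adjusted p = 0.0453). The abundant TOP messenger RNAs Eef1a1 and Eef2, the main elongation factors, did not pass (log2 fold changes 0.29 and -0.08; chosen after their values were seen). Of 50 ribosome biogenesis factors, 3 were called higher (Nhp2, Nop56 and Mrto4) and 0 lower, a share near the 3.88% of all tested genes called higher, and the median was 0.34. Other measures of this list stood above those of all tested genes: 40 of the 50 had log2 fold changes above 0, against 51.1%. Unadjusted limma p was under 0.05 with a higher CKO level in 17, against 15.9%. All CKO libraries lay above all control libraries in 15, against 12.7%. Nhp2, a protein of the H/ACA particles that guide pseudouridylation, had FPKM of 42.1, 23.5, 17.5 and 24.5 in control and 59.4, 53.8, 82.6 and 111 in CKO (log2 fold change 1.49, SE 0.31, limma adjusted p = 0.0388). Of 24 tested genes of mTOR, MYC and TOP control, 1 was called higher, Cnbp, which binds TOP messenger RNAs, and 0 lower, again a share near the 3.88% of all tested genes, and the median was -0.04; Cnbp had a log2 fold change of 0.82 (SE 0.20, limma adjusted p = 0.0497).

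Of the 7 paralogs, 3 passed the test (Rpl36al, Rps27l and Rps27rt), beside 30 of the 77 core genes and 3.88% of all tested genes called higher. Rps27l, a p53 target in human cells, rose from 86.9, 66.9, 60.4 and 75.5 FPKM in control to 173, 142, 505 and 242 FPKM in CKO (log2 fold change 1.69, SE 0.36, limma adjusted p = 0.0392), and Rpl36al rose from 189, 105, 78.3 and 103 to 279.9, 224, 419 and 361 (log2 fold change 1.46, SE 0.31, limma adjusted p = 0.0391). Rpl22l1 was as abundant as its partner Rpl22: its FPKM was 66.4% to 189.9% of that of Rpl22 in the control libraries and 59.3% to 131% in the CKO libraries (log2 fold change of Rpl22l1 1.45, SE 0.41, limma adjusted p = 0.0645). Rpl7l1 stood at 2.94% to 4.72% of Rpl7 in control and 2.04% to 3.39% in CKO, and had the lowest fold change of the 86 (log2 fold change 0.38, SE 0.20, limma adjusted p = 0.265). Rpl39l stood at 3.79% to 4.52% of Rpl39 in control and 2.24% to 4.22% in CKO (limma adjusted p of Rpl39l = 0.189). The retrogene Rps23rg1 was low, at 1.53, 1.32, 1.43 and 1.79 FPKM in control and 3.07, 2.80, 3.19 and 6.14 FPKM in CKO (limma adjusted p = 0.0547), and Rps19bp1 was at 13.8, 7.35, 8.97 and 8.91 FPKM in control and 15.6, 15.2, 19.9 and 43.6 FPKM in CKO (limma adjusted p = 0.0806).

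Rps27 and its intronless copy Rps27rt cannot be read apart by their coding sequences. Rps27 (chr3:90212522-90213651, GRCm38, minus strand, 5 exons) and Rps27rt (chr9:114982366-114982739, GRCm38, minus strand, 1 exon) share 100% of their 50-base coding windows, and how reads that fit both were counted is not given in the sources used here. Rps27 had FPKM of 452, 77.3, 79.6 and 76.4 in control and 289, 690.1, 1528 and 361 in CKO, and Rps27rt had 176, 209, 199 and 214 in control and 791, 283, 961 and 1064 in CKO. The pair traded places between libraries: Rps27 was the higher row in control replicate 1 and in CKO replicates 2 and 3, and Rps27rt in the other libraries. Their sum was 628, 287, 278 and 291 FPKM in control and 1079.7, 973, 2489 and 1425 FPKM in CKO, and the CKO mean was 4.02 times the control mean. The sum did not overlap between the genotypes, unlike Rps27 alone (log2 fold change 2.24, SE 0.66, limma adjusted p = 0.0725), while Rps27rt alone was called (log2 fold change 1.79, SE 0.39, limma adjusted p = 0.0408).

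Rpl3l is the form of Rpl3 used in striated muscle. Its FPKM was 0.863, 0.938, 2.56 and 8.62 in control and 6.56, 12.4, 0.982 and 18.8 in CKO, with overlapping groups (log2 fold change 1.25, SE 0.71, limma adjusted p = 0.3). The summed FPKM of 18 skeletal muscle genes was 62.0, 203, 1402 and 3821 in control and 2385, 3477, 156 and 9902 in CKO. The 4 libraries with the most muscle RNA were also the 4 with the most Rpl3l, and in all 8 libraries Rpl3l was at most 2.32% of the level of Rpl3.

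**Figure D3:**
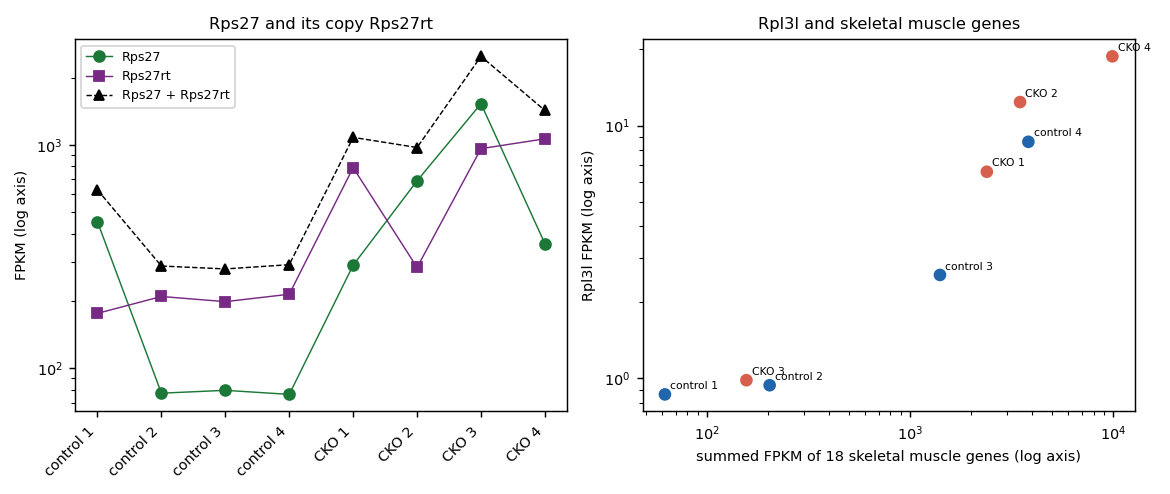
The left panel shows FPKM (log axis) of Rps27, of Rps27rt and of their sum in each library, in which the rows cross while the sum is higher in every CKO library than in any control library. The right panel sets the FPKM of Rpl3l against the summed FPKM of 18 skeletal muscle genes, both on log axes, with 1 point per library; Rpl3l is 0.863 in the library with the least muscle RNA and 18.8 in that with the most.

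The core genes moved together across libraries, and the order of the libraries was much the same from gene to gene. Control replicate 1 was the highest control library for 57 of the 77 and control replicate 3 the lowest for 58. CKO replicate 2 was the lowest CKO library for 61, and CKO replicates 3 and 4 both lay above CKO replicates 1 and 2 for 71. Which of the latter pair led depended on the gene. CKO replicate 4 was higher for 40 genes and replicate 3 for 37, with differences over 2-fold in both directions: 10 genes in favour of replicate 3, led by Rpl15 (5.02-fold), Rpl22 (4.33-fold) and Rps27 (4.23-fold), and 8 in favour of replicate 4, led by Rpsa (2.65-fold), Rplp2 (2.45-fold) and Rps20 (2.24-fold). These genes were chosen after their values were seen. In control replicate 1, 9 core genes were over 2-fold above the mean of the other controls, the most in Rps27 (5.82-fold), Rps28 (3.29-fold) and Rpl35a (2.75-fold). The 7 core genes whose groups overlapped were Rpl7a, Rpl15, Rpl22, Rps15a, Rps27, Rps27a and Rps28, and in 5 of them control replicate 1 was the highest control. Rps28, for one, had a level of 400.2 FPKM in control replicate 1 against 396.0 FPKM in the lowest CKO library.

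Within the family, the genes with short coding sequences had the larger fold changes. Across the 77 core genes, coding length (138 to 1257 bases) and log2 fold change had a Spearman correlation of -0.77 and a Pearson correlation of -0.71, as a description of genes that share the same 8 libraries and are not independent. Transcript length and log2 fold change had a Spearman correlation of -0.30 and a Pearson correlation of -0.12 across the same genes. Of the 40 genes at or under the median coding length of 468 bases, 24 were called and the median log2 fold change was 1.47, and of the 37 longer ones 6 were called, with a median of 1.11. The excess of control replicate 1 over the other controls went with coding length in the same direction (Spearman -0.65), a comparison within 1 genotype. Leaving out control replicate 1 gave a Spearman correlation of -0.80 between coding length and log2 fold change. FPKM divides by transcript length, and fold changes went with length outside the family too: among other genes in the shortest class by transcript length (204 to 1962 bases, n = 2953) the median log2 fold change was 0.53 and 11.7% were called higher, against a median of 1.32 in the 71 core genes of that class. In the next classes (1963 to 3086, 3087 to 4612 and at least 4614 bases) the other genes had medians of 0.09, -0.12 and -0.34, and the 4, 1 and 1 core genes had medians of 1.24, 1.39 and 1.47. Transcript length here, also in the correlation and the length-trend fit, is that of the longest annotated protein-coding transcript. That need not be the form these libraries hold. The single core genes of the longest classes were Rps20 (3706 bases, coding length 357) and Rps15a (5179 bases, coding length 390). The core genes were also abundant, all with a mean of at least 100 FPKM. The 405 other genes at that level had a median log2 fold change of 0.56 and 18.5% were called higher. The part of length and abundance in the core fold changes was not tested beyond the fit with the length trend removed.

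**Figure D4:**
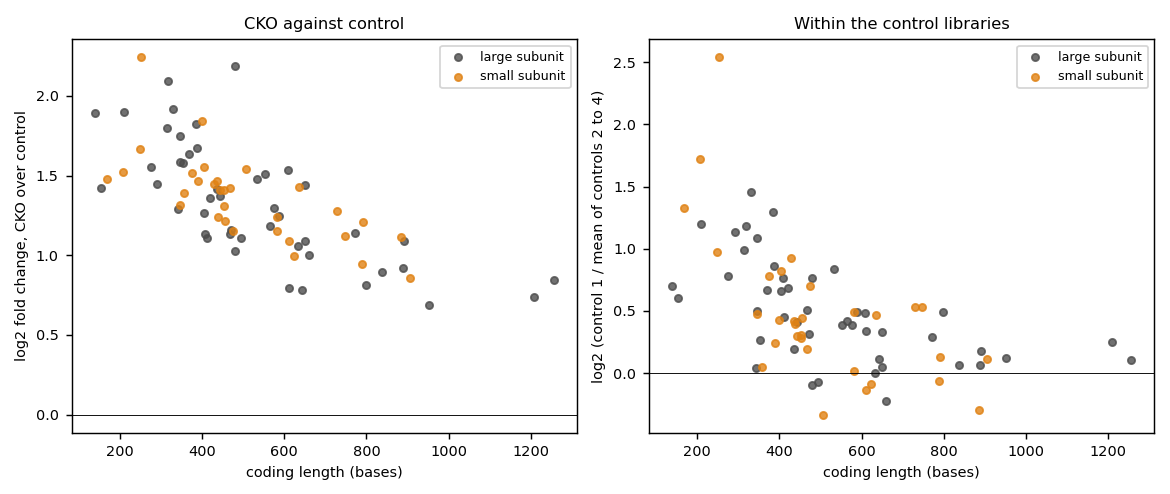
Each point is 1 of the 77 core genes, placed by coding length in bases; the left panel shows the log2 fold change of CKO over control and the right panel the log2 ratio of control replicate 1 to the mean of control replicates 2 to 4. Both fall with coding length, with Spearman correlations of -0.77 and -0.65.

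Many of these genes have processed copies elsewhere in the genome, and reads from such stretches can fit more than 1 place. In the median core gene 90.3% of the 50-base windows of the coding sequence occur also in a transcript of another annotated gene, and in 27 genes all do. Among the large-subunit genes with the highest fold changes, all windows were shared in Rpl21, Rpl36a and Rpl38 and 82.2% in Rpl35a. Outside the core, 100% were shared in the called paralogs Rpl36al and Rps27rt, 27.1% in Rps27l and 99.2% in the retrogene Rps23rg1. Across the 77 genes, the share of such windows had a Spearman correlation of -0.03 with the fold change and of -0.33 with the mean level, as a description. The 4 core genes with under 10% of their windows shared, which leave the fewest reads in doubt, include Rpl41, Rps3 and Rpl8. Rpl41, which encodes the shortest protein of the ribosome and had 4.49% shared, had FPKM of 1075, 607, 605 and 772 in control and 2009, 1788, 4839.6 and 3363 in CKO. In all 4 the groups did not overlap, beside 70 of the 77 core genes and 12.7% of all tested genes, and their median log2 fold change was 1.21. Of the 4, 1 passed the test, Rpl41 (log2 fold change 1.89, SE 0.38, limma adjusted p = 0.0388), beside 30 of the 77 core genes. Of 5 pseudogene rows left out by the rule, 3 were called higher (Rps18-ps5, Rpl9-ps6 and Rpl36a-ps1), against 3.88% of all tested genes and beside 30 of the 77 core genes.

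The direction of the core genes was steadier than the calls. With 1 library left out at a time, all 77 core fold changes were above 0, with a median between 1.15 and 1.49 and an unadjusted limma p under 0.05 in 71 to 76 genes, where 11.4% to 24.4% of all tested genes had one with a higher CKO level. The number of members called was 0 without control replicate 2, 3 or 4 or CKO replicate 1, 2 or 3, fits in which 0 of all 12748 tested genes were called in either direction. It was 36 without control replicate 1 (4.73% of all tested genes) and 53 without CKO replicate 4 (12% of all tested genes). In the next 5 fits, too, 0 of all tested genes were called in either direction, so their lack of calls is not particular to the members. Without CKO replicates 3 and 4 together, the core median was 0.81, with 74 core genes at an unadjusted p under 0.05 (22.9% of all tested genes). One fit took as covariate each library's mean log2(FPKM + 1) over the listed neutrophil, erythroid and B-lineage genes, not their summed FPKM. With it the core median was 1.42 and 69 core genes had an unadjusted p under 0.05 (11.9% of all tested genes). With Y-linked expression as a covariate the median was 1.29 and 66 core genes had an unadjusted p under 0.05 (12.2%). Scaling all libraries to equal FPKM totals gave a core median of 0.84 where the median of all tested genes was -0.37, a distance of 1.21, with 61 core genes at an unadjusted p under 0.05 (4.8%). Removing the trend with transcript length lowered the core median to 0.47, with 3 of the 77 below 0 and 34 at an unadjusted p under 0.05 (10.3%). Quantile normalization lowered it to 0.38, with 11 of the 77 below 0 and 20 at an unadjusted p under 0.05 (12.1%); 1 member was called higher, where 137 of all tested genes were called higher (1.07%) and 221 lower.

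**Figure D5:**
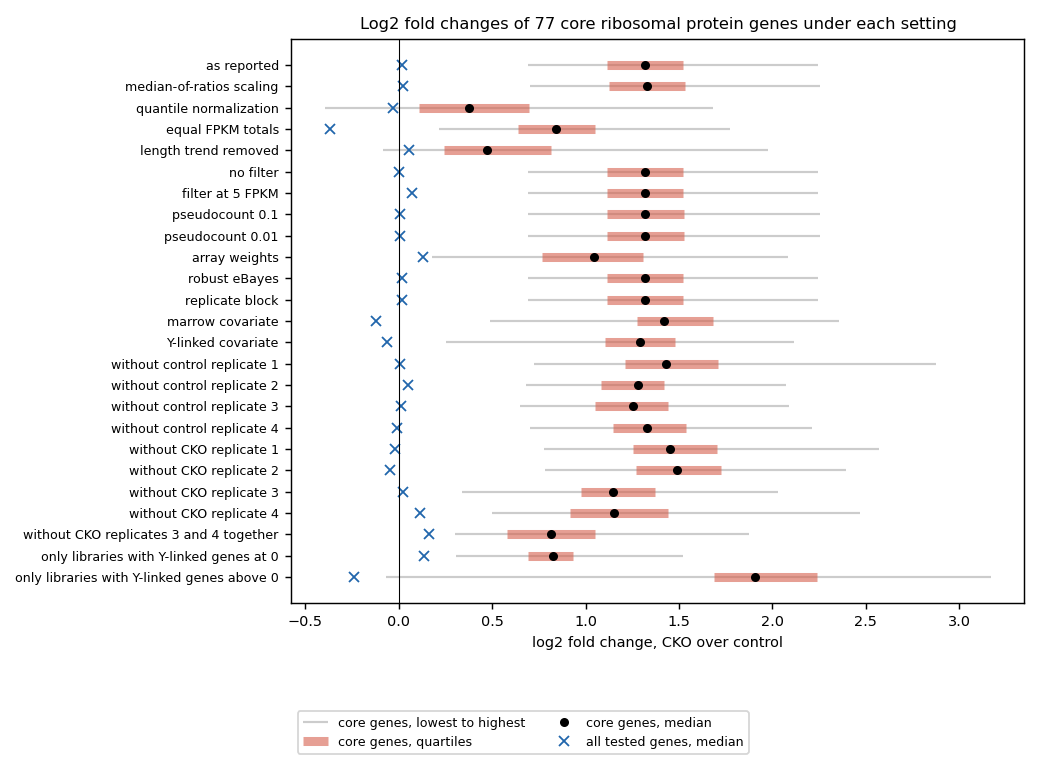
For each way of fitting, the grey line runs from the lowest to the highest log2 fold change of the 77 core genes, the red bar spans their quartiles, the black dot is their median and the blue cross is the median of all tested genes. The black dots lie between 0.38 and 1.91, to the right of the cross on every line.

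In the authors' deposited table, which gives a log2 fold change and a p-value per gene, 84 of the 86 genes had p under 0.05 and all 84 were higher in CKO, against 16.2% of all genes higher with p under 0.05. The log2 fold changes of the 86 in the authors' deposited table ran from 0.38 to 1.95 with a median of 1.24. The exceptions were Rpl3l and Rpl7l1.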

How the data were processed

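Bulk RNA from femoral cortical shafts of mice at postnatal day 7 was measured in 4 control and 4 CKO libraries, grouped by their titles. Per the submitters' processing notes, which give no role or order, the genome was GRCm38 and the tools were DESeq2 1.20.0, featureCounts 1.5.0-p3, HISAT2 2.0.5, CASAVA 1.8 and fastp. The annotation, the strand setting and the handling of reads that fit several places are not stated in the labels or the table. Per the file headers, the table holds FPKM for each library as computed by the authors, a p-value per gene and a log2 fold change per gene. Whether the authors' deposited p-value is adjusted is not stated, and the authors' deposited log2 fold change had the sign of the ratio of mean FPKM for 13989 of 14457 genes. Low values gave no steps of whole reads (among 827 low rows, the most common ratio between libraries was shared by at most 0.606% of rows), so depth is unknown and no counting interval is given.

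A gene was tested where 4 or more libraries reached 1 FPKM (12748 genes; 1709 did not). The model was limma 3.58.1 (R 4.3.3) on log2(FPKM + 1), two-sided, with an intensity trend and no term but genotype; Benjamini-Hochberg adjustment ran over every tested gene, with a threshold of 0.05. The log2(FPKM + 1) scale understates changes of low genes. The code was tested on simulated data. GENCODE M21 (GRCm38) gave coordinates and lengths, with transcript length taken from the longest protein-coding transcript of a gene or, where it had none, its longest transcript. Shared windows are the 50-base stretches of a coding sequence that occur in transcripts of other annotated genes on either strand. Start-site sequences are from RefSeq (GRCm38.p6).

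The members, the gene lists and the tests were chosen with earlier results of these data known. Named genes are, per subunit, the 4 core genes with the highest and the 4 with the lowest log2 fold change and the 2 with the highest mean; 10 genes chosen by role; all paralogs with their partners; Rps19bp1, Slc26a2 and ribosomal proteins with other symbols, such as Fau and Rack1; and up to 3 called genes per list or, where none was called, the 2 with the highest mean. Some genes that the rule names are not reported here. Rps23rg1, which the written rule for the core would have kept, was moved out of it after the table was seen. Other settings were median-of-ratios scaling, equal FPKM totals, quantile normalization, a loess fit (span 0.4) against transcript length taken off, robust eBayes, array weights, pseudocounts of 0.01 and 0.1, a 5 FPKM filter and none, a replicate block, marrow and Y-linked covariates, and leaving out each library. Leaving out CKO replicates 3 and 4 together, splitting by Y-linked expression and keeping Rps23rg1 were added after the data were seen.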

Additional observations from a re-analysis of the deposited data

Results flagged for a closer look

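In groups of 4 libraries, a library was marked when its gap to the nearest other library, divided by the range of the group, exceeded Dixon's 95% critical value; chance marks about 1 group in 20, and 16 of the 128 groups examined (62 named genes, the share of FPKM and the subunit ratio, each in both genotypes) were marked. Among the control libraries, the highest library stood apart for Rps27 (gap 0.991 of the range), Rpl22 (0.964), Rps29 (0.927), Rpl35a (0.878), Slc26a2 (0.844) and Rpl7l1 (0.832), and the lowest library for Rpl17 (0.830). The library was control replicate 1 for Rps27, Rpl22, Rps29, Rpl35a and Rpl7l1, and control replicate 2 for Slc26a2 and Rpl17.

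Among the CKO libraries, the highest library stood apart for Rpl39l (gap 0.916 of the range), Mrto4 (0.907), Rplp2 (0.896), Rpl22 (0.895), Rpl35a (0.891), Rpl39 (0.883), Rpl36a (0.881), Rps19bp1 (0.834) and Rpsa (0.834). It was CKO replicate 3 for Rpl39l, Rpl22, Rpl35a, Rpl39 and Rpl36a, and CKO replicate 4 for Mrto4, Rplp2, Rps19bp1 and Rpsa. Mrto4, for example, had FPKM of 29.8, 27.9, 28.0 and 49.2 in CKO replicates 1 to 4, and Rps29 had 416, 178, 159 and 159.8 in control replicates 1 to 4.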

How the results depend on the processing

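Members called higher numbered 33 of 86 as reported. They numbered 0 under median-of-ratios scaling, equal FPKM totals, removal of the length trend, the marrow covariate, the Y-linked covariate and without CKO replicates 3 and 4, fits in which 0 of all tested genes were called. They numbered 1 under quantile normalization (1.07% of all tested genes called higher) and 84 with array weights (32.2% of all tested genes). They ranged from 0 to 53 as single libraries were left out. Where 0 were called under median-of-ratios scaling, 70 core genes had an unadjusted limma p under 0.05 (15% of all tested genes). The count was 22 without a filter (2.26% of all tested genes), 49 at 5 FPKM (8.27%), 29 with a pseudocount of 0.1 (3.24%) or 0.01 (2.95%) and 32 with robust eBayes (3.63%), and 0 members were called lower under all these settings.

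Same-numbered control and CKO libraries deviated from their group means with correlations of -0.034, 0.229, -0.255 and 0.426. Numbers 2 and 4 correlated best with themselves, 1 and 3 did not. The labels name no pairing, and these mixed values cannot decide whether any libraries share a litter or batch. With the replicate number as a block, 7 members were called higher (1.95% of all tested genes).

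The medians of the large and small subunit were 0.35 and 0.38 under quantile normalization, 0.82 and 0.92 with equal totals, 0.52 and 0.46 with the length trend removed, 0.81 and 0.81 without CKO replicates 3 and 4, 0.82 and 0.83 within the libraries with Y-linked genes at 0 (1 control, 3 CKO), and 1.91 and 1.91 within those above 0 (3 control, 1 CKO). They ranged from 1.14 to 1.47 and from 1.15 to 1.54 as single libraries were left out. Large minus small was -0.092 as reported, -0.031 under quantile normalization, 0.053 with the length trend removed, -0.0026 with array weights, 0.044 with the marrow covariate, -0.044 with the Y-linked covariate, -0.0072 without CKO replicates 3 and 4, -0.0091 and 0.00036 within the libraries with Y-linked genes at 0 and above 0, and from -0.076 to -0.0038 as single libraries were left out. The share difference without CKO replicates 3 and 4 was 3.96 percentage points, and 6.18 to 8.94 as single libraries were left out.

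Over all settings, 64 named genes kept direction and side of the threshold in 887 cases, lost a call in 461, gained one in 46 and changed sign in 13. The sign changed under quantile normalization for Rplp0 (-0.40), Rpl3 (-0.29), Rack1 (-0.28), Rpl10 (-0.24), Rpl7 (-0.15), Rps2 (-0.15), Rpl15 (-0.049) and Rps4x (-0.030); with the length trend removed for Rpl10 (-0.085); with equal totals for Rpl7l1 (-0.075); with the marrow covariate for Cd24a (-0.16); and with the Y-linked covariate for Ddx3y (0.21) and Eif2s3y (0.55). The cause was not tested. Depth is unknown, so it is not known which low values it limits.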

Other observations

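The rows that share a Rpl or Rps symbol but are annotated as pseudogenes were read apart from the members. Rpl9-ps6 had FPKM of 85.6, 44.8, 43.3 and 48.0 in control replicates 1 to 4 and of 135.6, 115.8, 290.1 and 126.0 in CKO replicates 1 to 4. Rps18-ps5 had FPKM of 25.6, 35.4, 35.8 and 38.7 in control and 96.8, 52.1, 116.3 and 117.9 in CKO. Rpl36a-ps1 was low in control, at 1.09, 2.14, 0.666 and 1.68 FPKM, and stood at 6.79, 4.20, 13.4 and 10.2 FPKM in CKO. Their symbols name them as copies of Rpl9, Rps18 and Rpl36a, and how reads were divided between copy and parent was not tested.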
